A study of Mus musculus with 4 samples.

Results

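The Hox genes are the homeobox genes of the 4 clusters Hoxa, Hoxb, Hoxc and Hoxd, and they were taken here by symbol as Hoxa, Hoxb, Hoxc or Hoxd followed by a number from 1 to 13. Of the 39 such mouse genes in RefSeq, 37 had a probe set of their own among the 19938 genes measured, with 1 probe set each: 10 in Hoxa, 9 in Hoxb, 9 in Hoxc and 9 in Hoxd. Hoxb8 was listed only on a probe set shared with Hoxb7, which read 4.11 and 3.94 on the null arrays, 4.04 on the wild-type LSK/Flt3+ array and 4.04 on the wild-type LSK/Flt3- array. It was not used further.

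The study hybridised RNA of sorted mouse bone marrow cells to 4 Affymetrix arrays, with cells pooled from 5 to 30 mice of C57BL/6 background. The null group was Vav-Cre/Hdac3Flox/- LSK/Flt3- cells on 2 arrays. Wild-type LSK/Flt3+ cells and wild-type LSK/Flt3- cells were on 1 array each and are called WT Flt3+ and WT Flt3- below. LSK cells are the lineage-negative, Sca-1+ Kit+ fraction of marrow, in which blood stem cells and early progenitors lie, and Flt3 is a receptor that appears as the cells leave the stem cell state. Vav-Cre is active in blood cells, and Hdac3 is a histone deacetylase of corepressor complexes. No source used here says whether wild-type mice carried Cre, how old the mice were, or whether each null replicate was a pool of different mice. The limma p-values below therefore measure the spread of these arrays, which may be technical. Values are log2 levels that the authors made with RMA, and each probe set has its own affinity, so levels were compared between arrays and not ranked between genes.

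Hox proteins are transcription factors that bind DNA through a homeodomain and give body segments their identity in the embryo. Genes with low numbers lie at the 3' end of a cluster and act toward the head, and genes with high numbers lie at the 5' end and act toward the tail. In mouse blood, Hoxa and Hoxb genes are active in stem and progenitor cells and are switched down as cells mature. MLL complexes keep the clusters active, Polycomb complexes keep them silent, and proteins of the MEIS and PBX families bind DNA together with Hox proteins.

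Hdac3, the targeted gene, read 5.71 and 5.04 on the null arrays, 6.33 in WT Flt3+ cells and 6.18 in WT Flt3- cells; it was lower on both null arrays, but neither difference passed (limma, adjusted p = 1 for each), and the place of its probes relative to the deletion is not known here. Xist, the RNA of the inactive X chromosome, read 10.84 and 9.67 on the null arrays, 3.90 in WT Flt3+ cells and 4.23 in WT Flt3- cells, so a sex-linked RNA moved with the genotype, and the part of sex in the values below was not tested. Kit stood between 10.11 and 10.77 on all 4 arrays. Flt3 read 7.84 and 7.02 on the null arrays, 10.07 in WT Flt3+ cells and 9.18 in WT Flt3- cells, so its RNA was present in the sort labelled Flt3-. Sca-1 (Ly6a) was not among the genes with a probe set of their own. Null replicate 1 read higher than replicate 2 for most genes. Its median excess over replicate 2 was 0.28 for the 37 Hox genes (33 higher), 0.23 for 29 genes of other organs such as Alb and Ins2 (25 higher), and 0.14 for all genes (64.9% higher). Levels of the Hox genes described below are therefore given for each null array.

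As a landmark for the level of each probe set, the genes of other organs were used. On every array, 5 genes stood above the 90th percentile of the genes of other organs, which was 6.01 and 6.09 on the null arrays, 5.83 in WT Flt3+ cells and 5.74 in WT Flt3- cells. These were Hoxa4, Hoxa7, Hoxa9, Hoxb3 and Hoxb4. Another 5 were above it on 1 to 3 arrays: Hoxa5, Hoxa6, Hoxb1, Hoxb5 and Hoxb7. The remaining 27 genes were above it on no array, and they included all 9 Hoxc genes and all 9 Hoxd genes. A mean level of at least 6, close to these percentiles, was reached by 8418 of 19938 genes and 7 of 37 Hox genes. The landmark therefore does not set these Hox genes apart from genes at large. Genes of other organs also stood above the landmark. The highest read 8.19 and 6.46 on the null arrays (Amelx), 6.15 in WT Flt3+ cells (Tnnt3) and 6.15 in WT Flt3- cells (Apoa2). Probe sets differ in affinity, so the landmark is no detection call and ranks neither genes nor clusters.

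**Figure D1:**
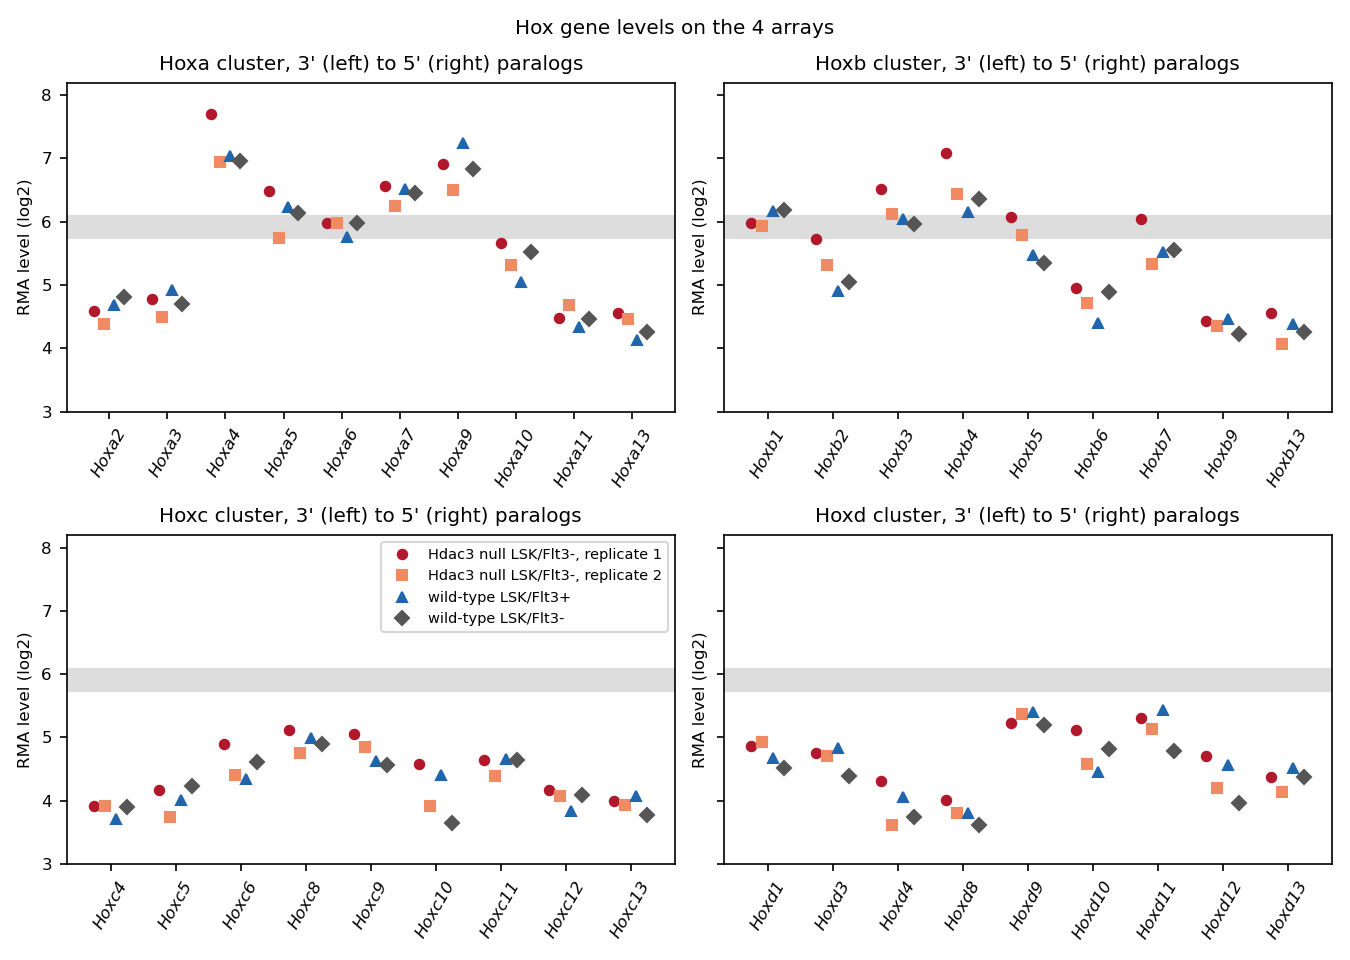
Log2 RMA level (vertical axis) of each Hox gene in its cluster order (horizontal axis) on the 4 arrays, 1 point per array. The grey band spans the 90th percentile of 29 genes of other organs on the 4 arrays (5.74 to 6.09), and Hoxa4, Hoxa7, Hoxa9, Hoxb3 and Hoxb4 lie above each array's own percentile while all Hoxc and Hoxd points lie below the band.

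Hoxa9, which mouse stem cells need for normal repopulation and which drives leukemia together with Meis1, read 6.91 and 6.50 on the null arrays, 7.24 in WT Flt3+ cells and 6.83 in WT Flt3- cells. Both null arrays lay below the Flt3+ array and on either side of the Flt3- array. Hoxa4 read 7.71 and 6.95 on the null arrays, 7.03 in WT Flt3+ cells and 6.96 in WT Flt3- cells. Its high value belonged to null replicate 1 alone, and the null replicates differed by 0.76, the widest gap of any Hox gene between them. Hoxa7, a partner of Hoxa9 in MLL-driven leukemia, read 6.56 and 6.25 on the null arrays, 6.51 in WT Flt3+ cells and 6.45 in WT Flt3- cells. The wild-type values lay between the null values.

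In the Hoxb cluster the neighbouring genes Hoxb2, Hoxb3, Hoxb4 and Hoxb5 each stood higher on both null arrays than on both wild-type arrays, but none passed the test (limma over all genes, 0 of 4 also at an unadjusted p under 0.05). They were picked out after their values were seen: 10 of 37 Hox genes had this order, against 23% of all genes, the others being Hoxa6, Hoxa11, Hoxa13, Hoxc4, Hoxc9 and Hoxd1, and 3 had the opposite order, against 11.7% of all genes. Hoxb4, whose forced expression expands mouse stem cells, read 7.09 and 6.43 on the null arrays, 6.16 in WT Flt3+ cells and 6.36 in WT Flt3- cells. Hoxb3 read 6.52 and 6.12 on the null arrays, 6.04 in WT Flt3+ cells and 5.97 in WT Flt3- cells. For both, the higher null value came from replicate 1, while replicate 2 exceeded the Flt3- array by 0.07 for Hoxb4 and 0.15 for Hoxb3. Hoxb5, a marker of long-term stem cells in mouse marrow, read 6.07 and 5.79 on the null arrays, 5.47 in WT Flt3+ cells and 5.35 in WT Flt3- cells. Hoxb2, a hindbrain gene in the embryo, read 5.73 and 5.31 on the null arrays, 4.91 in WT Flt3+ cells and 5.04 in WT Flt3- cells. Hoxb1, also a hindbrain gene, went the other way, with 5.98 and 5.93 on the null arrays, 6.17 in WT Flt3+ cells and 6.18 in WT Flt3- cells.

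The 250 bases before the starts of Hoxb4 and Hoxa9 are shown because, of the Hox genes with a RefSeq promoter entry (22 of 39, build GRCm38.p6), these were the highest and the lowest in null against WT Flt3+ cells. Capitals mark matches on either strand to the homeodomain core TAAT and the GC box GGGCGG. The first is chr11:96318017-96318266 on the + strand, and the second is chr6:52227371-52227620 on the - strand.
Hoxb4: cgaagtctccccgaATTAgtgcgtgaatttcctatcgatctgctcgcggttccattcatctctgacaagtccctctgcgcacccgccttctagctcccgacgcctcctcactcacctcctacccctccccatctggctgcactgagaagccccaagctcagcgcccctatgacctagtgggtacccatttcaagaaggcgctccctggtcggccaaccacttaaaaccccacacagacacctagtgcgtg
Hoxa9: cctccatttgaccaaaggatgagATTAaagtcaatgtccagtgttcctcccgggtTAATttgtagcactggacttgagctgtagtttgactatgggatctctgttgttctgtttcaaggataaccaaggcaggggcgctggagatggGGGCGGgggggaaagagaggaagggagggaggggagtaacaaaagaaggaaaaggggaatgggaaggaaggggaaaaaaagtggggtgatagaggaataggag

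The Hoxb4 window held 14 CpG pairs and 1 TAAT core, and the Hoxa9 window held 3 CpG pairs, 2 TAAT cores and 1 GC box. TAAT was present in 54.9% of 32851 windows of the same length and in 18 of 24 Hox windows, and GGGCGG in 32.7% of all and 10 of 24 Hox windows. The CCAAT box, searched as CCAAT, was in 33.8% of all windows and 14 of 24 Hox windows, and the joint Hox and Pbx site TGATTNAT in 2.82% of all and 2 of 24, those of Hoxa2 and Hoxd11. Neither of these motifs, nor the TATA box TATAAA (12.4% of all windows, 4 of 24 Hox windows) or the E-box CACGTG (6.02% of all, 4 of 24), was in the Hoxb4 or Hoxa9 window. These are matches of letters only.

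The null and WT Flt3- arrays carry the same label for the sorted fraction and differ in genotype, and also in Xist, as given above. No Hox gene differed by the limma test over all genes (0 of 37 at an adjusted p under 0.05, against 0.0201% of all genes), and the adjusted p was 1 for each. At an unadjusted p under 0.05 there were 0 higher and 0 lower Hox genes, against 1.10% and 1.30% of all genes. In 6 of 7 other settings of the fit run, those with all 37 Hox genes, the count of called Hox genes was also 0, and where a mean level of 6 or more was required it was 0 of 7. The smallest difference that passed among all genes was 2.92 in size here and 1.72 against WT Flt3+ cells, while the largest Hox differences were 0.59 and 0.62, so a count of 0 does not show that Hox genes were unchanged. No Hox gene was 2-fold away from the Flt3- array on either null array. The median Hox difference was 0.10, beside 0.09 for all genes, and it turned to -0.01 with array medians centred, -0.04 after quantile normalization and -0.05 after cyclic loess. It was 0.28 on null replicate 1 and -0.01 on replicate 2, beside 0.15 and 0.03 for all genes.

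The 3 highest differences in this comparison were those of Hoxc10, Hoxb5 and Hoxd12. Hoxb5 was higher by 0.58 ± 0.33 (SE; 95% interval -0.16 to 1.33; limma, unadjusted p = 0.110). Hoxc10 read 4.58 and 3.91 on the null arrays, 4.41 in WT Flt3+ cells and 3.66 in WT Flt3- cells, a difference of 0.59 ± 0.34 from Flt3- (SE; 95% interval -0.16 to 1.34). Hoxd12 read 4.72 and 4.21 on the null arrays, 4.56 in WT Flt3+ cells and 3.97 in WT Flt3- cells, a difference of 0.49 ± 0.32 from Flt3- (SE). For Hoxc10 and Hoxd12 the wild-type arrays were farther apart than their null differences from Flt3-, and both genes, which pattern the hind body and limbs, lay within the levels of the genes of other organs. The 95% intervals of all 37 genes in this comparison included 0, with bounds from -0.99 (Hoxa2) to 1.34 (Hoxc10).

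The 3 lowest were Hoxa2, Hoxc5 and Hoxb1. Hoxa2, a gene of the hindbrain and second pharyngeal arch, read 4.59 and 4.38 on the null arrays, 4.68 in WT Flt3+ cells and 4.81 in WT Flt3- cells (difference from Flt3- -0.32 ± 0.30, SE; 95% interval -0.99 to 0.35). Hoxc5 read 4.17 and 3.74 on the null arrays, 4.01 in WT Flt3+ cells and 4.23 in WT Flt3- cells (-0.27 ± 0.31, SE). Hoxb1 was at -0.22 ± 0.33 (SE). Null values of these 3 genes lay below the Flt3- array on both replicates.

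Counted by array, 18 of 37 Hox genes stood higher on both null arrays than on the Flt3- array and 4 stood lower on both (Hoxa2, Hoxb1, Hoxc5 and Hoxd13), against 41.3% and 19.9% of all genes. As shares of the Hox genes these were 48.6% and 10.8%. The split depended on scaling. With each array centred on its own median, the median of all genes was -0.02 in place of 0.09, and 14 Hox genes were higher and 13 lower. After quantile normalization the counts were 13 and 13, and after cyclic loess 12 and 13. The shares of all genes above are for the deposited values only. By cluster the median difference was -0.03 in Hoxa, 0.16 in Hoxb, 0.03 in Hoxc and 0.29 in Hoxd, and with array medians centred it was -0.15, 0.05, -0.08 and 0.18, so the sign for Hoxc turned. On null replicates 1 and 2 apart it was 0.10 and -0.20 in Hoxa, 0.50 and 0.07 in Hoxb, 0.22 and -0.02 in Hoxc, and 0.36 and 0.19 in Hoxd. By position it was 0.34 for paralogs 1 to 4 (11 genes), 0.02 for paralogs 5 to 8 (10 genes) and 0.11 for paralogs 9 to 13 (16 genes), and with array medians centred 0.22, -0.10 and -0.01. On null replicates 1 and 2 apart, it was 0.36 and 0.02 for paralogs 1 to 4, 0.25 and -0.18 for paralogs 5 to 8, and 0.21 and 0.13 for paralogs 9 to 13. The shift of replicate 1 moved with all of these, and its part in them was not tested. Against WT Flt3+ cells the Hoxd median was -0.10 and that of paralogs 9 to 13 was -0.08. The WT Flt3+ array stood above the WT Flt3- array for 8 of 9 Hoxd genes (median 0.21). The part of the single Flt3- array in the medians above was not tested.

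**Figure D2:**
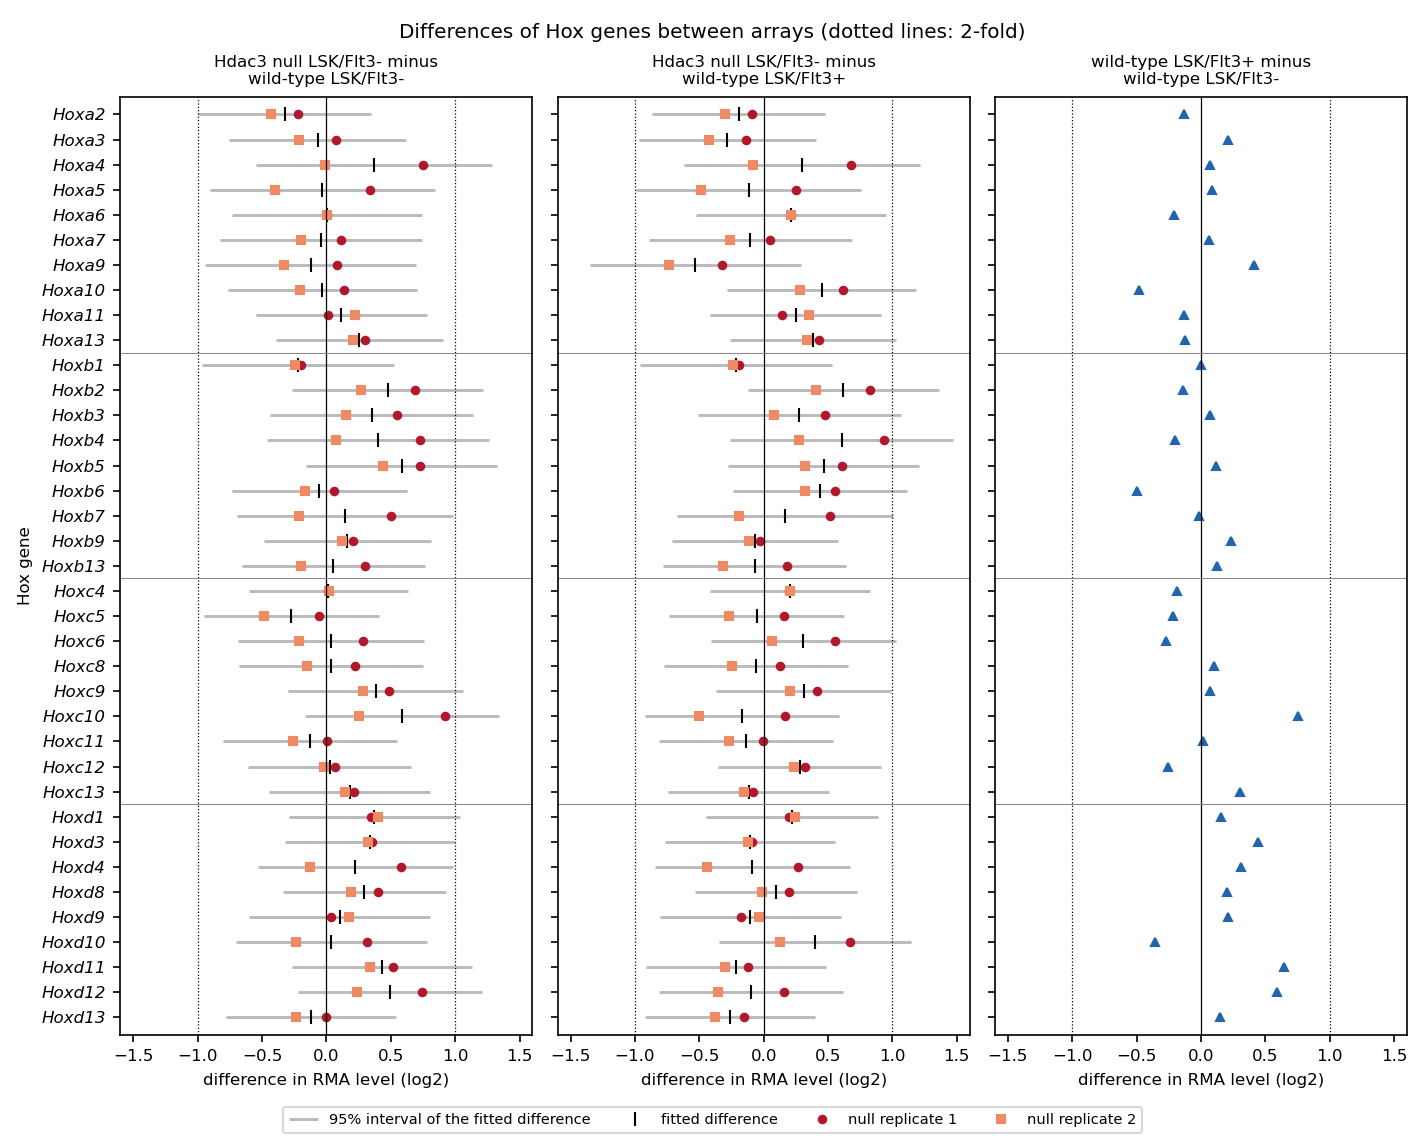
Differences in log2 RMA level (horizontal axis) of the 37 Hox genes (vertical axis, by cluster), for null minus wild-type LSK/Flt3- (left), null minus wild-type LSK/Flt3+ (middle) and wild-type LSK/Flt3+ minus LSK/Flt3- (right). Circles and squares are the null replicates, ticks the fitted difference and grey lines its 95% interval, all of which include 0; no point lies beyond the dotted lines at 2-fold.

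Against WT Flt3+ cells both the sorted fraction and the genotype differ, and the null arrays are those used above, so the results are not independent. Again 0 of 37 Hox genes passed limma over all genes (0.316% of all genes did), and 0 were higher and 0 lower at an unadjusted p under 0.05, against 1.13% and 2.31% of all genes. The lowest unadjusted p was 0.0939, for Hoxb2 (difference 0.62 ± 0.33, SE; 95% interval -0.13 to 1.36; limma, adjusted p = 1). Hoxb4 was at 0.60 ± 0.39 (SE), with 0.93 on null replicate 1 and 0.28 on replicate 2. Hoxb5 was at 0.47 ± 0.33 (SE), with 0.61 and 0.32. These 3 were the highest differences in this comparison, while Hoxb1 of the same cluster was at -0.22.

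Hoxa9 had the lowest difference from WT Flt3+ cells, at -0.53 ± 0.37 (SE; 95% interval -1.35 to 0.29; limma, unadjusted p = 0.178), with -0.33 on null replicate 1 and -0.74 on replicate 2. Hoxa3 followed at -0.28 ± 0.31 (SE), with levels of 4.78 and 4.49 on the null arrays against 4.91 in WT Flt3+ cells. Hoxd13, a gene of digits and the genital tubercle, was at -0.26 ± 0.30 (SE), with levels of 4.37 and 4.14 on the null arrays against 4.52 in WT Flt3+ cells. Both null arrays were below the Flt3+ array for these 3 genes. Over all members, 15 stood higher on both null arrays and 11 lower on both, against 35% and 25.1% of all genes. With array medians centred the Hox counts were 16 and 11, after quantile normalization 12 and 16, and after cyclic loess 14 and 16. The larger side turned under quantile normalization and cyclic loess but not with centring. The shares of all genes are for the deposited values only. The median Hox difference was -0.06, beside 0.05 for all genes. It was 0.19 on null replicate 1 and -0.11 on replicate 2, beside 0.11 and -0.01 for all genes. The sign of the Hox median therefore depends on the replicate. With array medians centred it was -0.09, after quantile normalization -0.12 and after cyclic loess -0.12. By cluster the median was 0.05 in Hoxa, 0.28 in Hoxb, -0.06 in Hoxc and -0.10 in Hoxd. By position it was 0.20 for paralogs 1 to 4, 0.13 for paralogs 5 to 8 and -0.08 for paralogs 9 to 13. Between the null replicates the sign differed for every cluster and position but Hoxb.

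The wild-type LSK/Flt3+ and LSK/Flt3- arrays were set side by side to see how Hox genes differ between these fractions, with 1 array each and no test. No Hox gene was at least 2-fold higher or lower (0 of 37 each way, against 0.923% and 0.176% of all genes). Hoxb6 read 4.40 in Flt3+ and 4.89 in Flt3- cells (difference -0.49), and Hoxa10, which is active in early progenitors, read 5.04 and 5.52 (-0.48). Hoxd10 read 4.45 in Flt3+ and 4.81 in Flt3- cells (-0.36). Hoxc10 (0.76), Hoxd11 (0.64) and Hoxd12 (0.59) had the highest differences, Hoxd11 with 5.43 in Flt3+ and 4.79 in Flt3- cells, and Hoxa9 was at 0.41. The SD of the differences over the 37 Hox genes was 0.29 for this pair and 0.26 for the null replicates. Over all genes it was 0.31 for this pair and 0.43 for the null replicates. The largest Hox gap between the wild-type arrays, 0.76 for Hoxc10, was about that between the null replicates, 0.76 for Hoxa4.

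For Hoxa10 and Hoxb6 the null values lay on either side of the Flt3- array and above the Flt3+ array. Hoxa10 read 5.66 and 5.32 on the null arrays, and Hoxb6 4.95 and 4.72. Their null differences were 0.45 ± 0.33 and 0.44 ± 0.30 (SE) from Flt3+ cells and -0.03 and -0.06 from Flt3- cells, with limma adjusted p of 1 for each. Hoxd10 read 5.12 and 4.58 on the null arrays (0.40 ± 0.33, SE, from Flt3+ and 0.04 from Flt3-). Hoxd11 read 5.31 and 5.13 on the null arrays, at 0.43 ± 0.31 (SE) from Flt3- and -0.21 from Flt3+ cells.

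The other 19 Hox genes ranged from 3.91 (Hoxc4) to 6.48 (Hoxa5) on null replicate 1, from 3.62 (Hoxd4) to 5.98 (Hoxa6) on replicate 2, from 3.72 (Hoxc4) to 6.23 (Hoxa5) in WT Flt3+ cells, and from 3.61 (Hoxd8) to 6.15 (Hoxa5) in WT Flt3- cells. Their differences ran from -0.12 (Hoxc11) to 0.38 (Hoxc9) in null against Flt3- cells and from -0.14 (Hoxc11) to 0.38 (Hoxa13) in null against Flt3+ cells. Hoxa5, a regulator of myeloid and red cell choice, had a spread of 0.74 between the null replicates and differences of -0.03 from Flt3- and -0.12 from Flt3+ cells. Hoxa6 was the steadiest member between the null replicates, at 5.98 on each. In RefSeq, 10 of the 37 genes overlap another Hox gene of their cluster, so their probe sets could read shared transcripts.

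The clusters also hold non-coding genes, of which 10 had a probe set of their own, among them 6 microRNA genes. They are shown because microRNAs of the miR-10 and miR-196 families lie between Hox genes and are transcribed with them, and miR-196 is known to target Hox messages. Mature 5' arms from RefSeq (GRCm38.p6) are given with the seed, bases 2 to 8, in capitals. They lie at chr11:96265187-96265208 (+) for miR-196a-5p of Mir196a-1, chr6:52230129-52230150 (-) for miR-196b-5p, chr11:96317186-96317208 (+) for miR-10a-5p and chr2:74726074-74726096 (+) for miR-10b-5p.
miR-196a-5p: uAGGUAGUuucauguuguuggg
miR-196b-5p: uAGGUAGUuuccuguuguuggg
miR-10a-5p: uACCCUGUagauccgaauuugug
miR-10b-5p: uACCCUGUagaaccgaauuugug

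Each family shares a seed. Counted from 1 at the 5' end, miR-196a-5p and miR-196b-5p differ by A12C, and miR-10a-5p and miR-10b-5p by U12A. Mir196b, in the Hoxa cluster, read 5.83 and 5.15 on the null arrays, 5.30 in WT Flt3+ cells and 4.89 in WT Flt3- cells, and Mir196a-1 of the Hoxb cluster read 4.74 and 4.25 on the null arrays, 4.38 in Flt3+ and 4.01 in Flt3- cells. Both stood higher on both null arrays than on the Flt3- array, by 0.60 ± 0.37 and 0.48 ± 0.32 (SE; limma, adjusted p = 1 for each), with the Flt3+ array inside the null range. Mir10a read 2.92 and 2.94 on the null arrays, 3.18 in Flt3+ and 2.81 in Flt3- cells, and Mir10b 3.16 and 2.80 on the null arrays, 3.04 in Flt3+ and 3.12 in Flt3- cells. Mir615, in the Hoxc cluster, read 7.53 and 6.92 on the null arrays, 6.75 in Flt3+ and 6.65 in Flt3- cells, with both null arrays highest (0.58 ± 0.39 from Flt3-, SE; limma, adjusted p = 1). No source used here says whether these probe sets read the mature form. The 10 genes had a median difference of 0.15 from Flt3- and 0.08 from Flt3+ cells, and 0 passed the test in either comparison, also at an unadjusted p under 0.05. Of all genes, 0.0201% passed against Flt3- and 0.316% against Flt3+ cells.

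Protein-coding genes at the cluster ends, the nearest 2 on each side, did not pass either (0 of 16 in both comparisons, and 0 at an unadjusted p under 0.05). The shares of all genes that passed were 0.0201% against Flt3- and 0.316% against Flt3+ cells. Medians of the 16 genes were 0.05 from Flt3- and 0.04 from Flt3+ cells. Skap1, an adaptor of T cell receptor signalling at the 3' end of Hoxb, read 5.60 and 5.54 on the null arrays, 4.88 in WT Flt3+ cells and 5.08 in WT Flt3- cells. Its null values exceeded both wild-type arrays, by 0.69 ± 0.31 (SE; limma, unadjusted p = 0.0533) from Flt3+ and 0.48 ± 0.31 (SE) from Flt3- cells. Skap2 at the 3' end of Hoxa read 9.51 and 9.13 on the null arrays, 9.35 in Flt3+ and 9.35 in Flt3- cells.

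Among DNA-binding partners of Hox proteins, 0 of 8 measured genes passed in either comparison, against 0.0201% (Flt3-) and 0.316% (Flt3+) of all genes. Meis1, the partner of Hoxa9 in stem cells and leukemia, read 10.36 and 9.89 on the null arrays, 9.58 in WT Flt3+ cells and 10.14 in WT Flt3- cells. Null values lay on either side of the Flt3- array and above the Flt3+ array (0.54, limma, unadjusted p = 0.151). Pbx3 was at -0.54 and Pknox2 at 0.40 in null against Flt3- cells, and Pknox1 was at -0.47 against Flt3+ cells.

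No regulator of the clusters passed the test in either comparison, where 0.0201% of all genes passed against Flt3- and 0.316% against Flt3+ cells. Of the MLL, menin and DOT1L group 0 of 14 were called, with a median of 0.02 from Flt3- and 0.16 from Flt3+ cells. Kmt2a, which encodes MLL, read 10.19 and 9.52 on the null arrays, 9.60 in WT Flt3+ cells and 9.70 in WT Flt3- cells. Psip1, which tethers MLL complexes to chromatin, was at -0.41 from Flt3- cells, and Aff4, a subunit of elongation complexes, at 0.63 from Flt3+ cells. Of 18 Polycomb genes 0 were called, with medians of -0.02 and -0.07. Phc1, a subunit of Polycomb complex PRC1, read 6.66 and 6.41 on the null arrays, 6.94 in WT Flt3+ cells and 7.44 in WT Flt3- cells. Both null arrays lay below both wild-type arrays, and its difference from Flt3- cells, -0.90 ± 0.36 (SE), had an unadjusted p of 0.0298 and a limma adjusted p of 1. Its relative Phc3 was at -0.72 from Flt3- cells. The highest Polycomb differences were Rbbp4 (0.31) and Phc2 (0.25) from Flt3- and Pcgf2 (0.37) and Rbbp4 (0.26) from Flt3+ cells. In each comparison 8 of 18 members stood higher, where 65.0% of all genes did against Flt3- and 56.9% against Flt3+ cells. Bmi1, a PRC1 gene that stem cells need for self-renewal, was at -0.32 and -0.52 from Flt3- and Flt3+ cells. Kdm6a, an enzyme that removes the Polycomb mark, read 8.19 and 7.93 on the null arrays, 7.43 in Flt3+ and 7.49 in Flt3- cells (0.57 from Flt3-, limma, adjusted p = 1). Xist was also higher on the null arrays, as given above, and the part of sex in the Kdm6a values was not tested. Kdm6b, the only other listed enzyme of this kind, was at 0.03 from Flt3- and -0.06 from Flt3+ cells. The caudal genes Cdx1, Cdx2 and Cdx4, activators of Hox genes in the embryo, were at 0.27, 0.26 and 0.07 from Flt3- cells.

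Of 11 genes known as targets of Hoxa9 and Meis1 in mouse progenitors, 0 were called against Flt3- cells (Flt3 was at -1.75, limma, adjusted p = 0.692) and 1, Flt3, was lower against Flt3+ cells (-2.64, limma, adjusted p = 0.0317). Of all genes, 0.0201% were called against Flt3- and 0.316% against Flt3+ cells. Flt3 is also the gene the sorts were split on. Id2, an inhibitor of helix-loop-helix factors, was at -1.58 (limma, adjusted p = 0.178) and Cd34 at -0.74 from Flt3+ cells, both at an unadjusted p under 0.05 and with an adjusted p above it. Bcl2, a survival gene, was at -0.72 and -0.74 from Flt3- and Flt3+ cells. Erg, Lmo2 and Myb, transcription regulators of stem and progenitor cells, had fitted differences from -0.11 (Erg, from Flt3-) to 0.18 (Lmo2, from Flt3+), and Pim1, a survival kinase, was at 0.62 from Flt3- cells. The median of the list was -0.11 from Flt3- and -0.46 from Flt3+ cells.

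**Figure D3:**
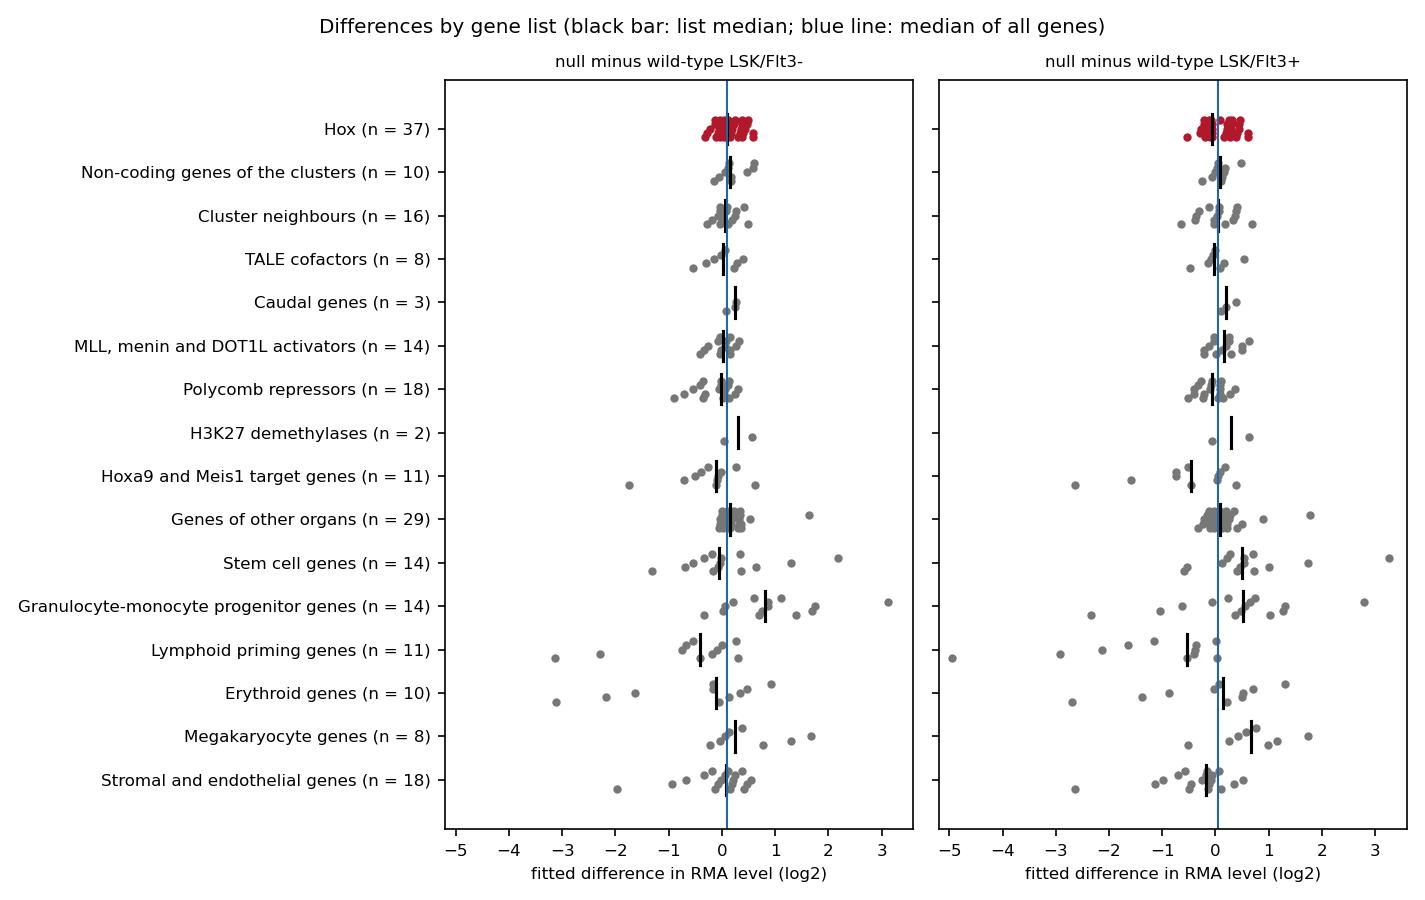
Fitted differences in log2 RMA level (horizontal axis) of the genes of each list (vertical axis, 1 point per gene), for null minus wild-type LSK/Flt3- (left) and null minus wild-type LSK/Flt3+ (right). The 37 Hox genes (red) lie between -0.53 and 0.62 in both panels, while the granulocyte-monocyte progenitor list reaches 3.11 (Ms4a3) and the lymphoid priming list -4.95 (Dntt).

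Markers of other cell classes differed between the same arrays. In null against WT Flt3- cells, 13 of 14 granulocyte-monocyte progenitor genes stood higher and 8 of 11 lymphoid priming genes lower, with medians of 0.81 and -0.41, where 65.0% of all genes stood higher and 34.9% lower. Of these lists 1 and 0 genes passed limma there, against 0.0201% of all genes. Against WT Flt3+ cells 1 granulocyte-monocyte gene passed as higher (Ms4a3) and 1 as lower (Csf1r). In that comparison 3 lymphoid genes passed as lower (Dntt, Il7r and Satb1), where 0.316% of all genes passed. The summed log2 levels of the granulocyte-monocyte list were 110 and 116 on the null arrays, 108 in WT Flt3+ cells and 101 in WT Flt3- cells. Those of the 14 stem cell genes were 103 and 102 on the null arrays, 93.4 in Flt3+ and 101 in Flt3- cells. Opposite moves lie under these sums, with 5 of the 14 higher and 9 lower than in Flt3- cells. Slamf1 read 8.52 and 8.17 on the null arrays, 5.08 in Flt3+ and 6.16 in Flt3- cells. It passed only against Flt3+ cells (limma, adjusted p = 0.00506). Mecom read 6.97 and 6.51 on the null arrays, 7.28 in Flt3+ and 8.06 in Flt3- cells, and did not pass. The sums of the 18 stromal and endothelial genes were 89.6 and 85.3 on the null arrays, 94.4 in Flt3+ and 89.0 in Flt3- cells. Stroma expresses many Hox genes. In null against WT Flt3+ cells 14 of the 18 stromal and endothelial genes stood lower, as did 43.1% of all genes, and Emcn, an endothelial and stem cell surface gene, passed, with 4.67 and 4.24 on the null arrays, 7.09 in WT Flt3+ cells and 6.44 in WT Flt3- cells (-2.63 from Flt3+, limma, adjusted p = 0.0108). Pdgfrb (-0.99), Dcn (-1.14) and Postn (-0.70) were at an unadjusted p under 0.05 there and did not pass, and the stromal genes Lepr and Kitl were at -0.12 and -0.18. The erythroid and megakaryocyte sums set the null replicates apart, though not every member did. The summed levels of the 10 erythroid genes were 67.6 and 77.4 on the null arrays, 74.2 in WT Flt3+ cells and 78.0 in WT Flt3- cells. Those of the 8 megakaryocyte genes were 55.3 and 63.2 on the null arrays, 53.9 in WT Flt3+ cells and 55.2 in WT Flt3- cells. Car1, which encodes a red cell carbonic anhydrase, read 6.44 and 10.92 on the null arrays, 11.37 in WT Flt3+ cells and 11.81 in WT Flt3- cells, so null replicate 1 stood apart. Pf4, a platelet chemokine gene, read 7.31 and 10.04 on the null arrays, 9.20 in WT Flt3+ cells and 8.72 in WT Flt3- cells. Car1 and Pf4 had the widest gaps between the null replicates in their lists. The erythroid genes Alas2 (7.30 and 6.33) and Slc4a1 (5.25 and 5.11) went the other way. So did the megakaryocyte genes Gp9 (6.07 and 6.04) and F2rl2 (7.80 and 7.69). In pooled sorted cells, fewer cells of a type and less RNA per cell cannot be told apart. The part of cell makeup in the Hox values was not tested.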

How the data were processed

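Per the submitters' processing notes, the authors used RMA (affy 1.23), and each deposited value is a log2 level of 1 probe set. Array medians over all genes differed (5.70 and 5.52 on the null arrays, 5.58 for WT Flt3+ and 5.50 for WT Flt3-), so how far the arrays were scaled to each other is unclear. Scan dates and detection calls were not used here. The platform's annotation gave a single symbol to 21789 of 35556 probe sets, and each of 19938 genes was represented by its brightest probe set by mean level. A single model in limma 3.58.1 (R 4.3.3) took the 4 arrays as 3 groups, with a prior that follows the mean level. The null pair gives its 1 residual degree of freedom, beside 9.01 from the prior, and the single WT arrays are taken to vary like that pair. The median SE of a difference was 0.34, and the number of arrays limits the precision. Tests were two-sided with a threshold of 0.05 after Benjamini-Hochberg adjustment across the genes. The fit was tested on simulated data.

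The Hox genes and the lists were chosen with earlier results of these data known, and the non-coding genes, all those RefSeq places inside a cluster, were added after values were seen. Values on every array were given by rule to Hox genes above the 90th percentile of the genes of other organs on all 4 arrays, to those at an unadjusted p under 0.05 and to the 3 highest and 3 lowest of each comparison, 18 genes in all. In each other list the rule asked for members at an unadjusted p under 0.05 and up to 2 of the largest differences each way. It was not followed in full. Members of the cell class lists at an unadjusted p under 0.05, such as Vwf, Gata2, Mpo and Rhag, were not all described. A gene left unnamed is therefore not shown to be unchanged. Some further members and list genes were chosen after their values were seen. Promoter windows and microRNAs came from RefSeq tables. The alternatives were no trend, robust moderation, array median centring, quantile normalization, cyclic loess, the mean of probe sets, a mean level of at least 6, and leaving out each null array.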

Additional observations from a re-analysis of the deposited data

How the results depend on the processing

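The count of Hox genes past limma's adjusted threshold was 0 in both null comparisons under all 7 other settings of the fit, with 0 at an unadjusted p under 0.05 as well. With these arrays differences of this size could hardly pass, so this is no sign of stability. The number of Hox genes lower on both null arrays than for WT Flt3- was 4 as deposited and 13 after array median centring, 13 after quantile normalization and 13 after cyclic loess, alternatives chosen for this count after seeing the data. By construction these scalings remove offsets between arrays, and centring moves all genes alike. The share of all genes under each scaling is not given here, so the scaled Hox counts have no background to be read against. The difference of Hoxd10 between null and WT Flt3- cells was 0.04 as deposited and turned to -0.078 with centring, -0.10 with quantile normalization and -0.12 with cyclic loess. Leaving out 1 null replicate put the median Hox difference from WT Flt3+ cells between -0.11 and 0.19. Of 228 values of named Hox genes under other settings of the fit, 225 kept their direction, and these 3 of Hoxd10 did not. Each Hox gene has 1 probe set, so no trend, robust moderation, the mean of probe sets and the level filter could not change its difference. Only centring, quantile normalization and cyclic loess could turn a direction, so most of the 228 values repeat the reported one and the tally is no sign of stability. That tally leaves out the single null arrays, between which the sign differed for 7 of the 18 named genes against WT Flt3- cells (Hoxa3, Hoxa4, Hoxa7, Hoxa9, Hoxa10, Hoxb6 and Hoxd10) and for 5 against WT Flt3+ cells (Hoxa4, Hoxa7, Hoxc5, Hoxc10 and Hoxd12). Over all genes, robust moderation called 12 higher and 13 lower against WT Flt3- cells (4 and 0 as reported) and 15 and 99 against WT Flt3+ cells (7 and 56 as reported). Calls against WT Flt3+ cells were 5 and 17 with a mean level of 6 or more, 10 and 89 with centring, and 10 and 104 with cyclic loess, and calls against WT Flt3- cells were 2 and 0 with centring and 2 and 0 with quantile normalization. With a mean level of 6 or more, 7 Hox genes remained and dimmer ones gave no value. Leaving out a null array leaves no residual degree of freedom, so those are values with no test. No paired analysis was possible because each wild-type fraction had 1 array and no label linked it to a null array. The dim level of most Hox probe sets limits what their differences can show.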
